A study of Arabidopsis thaliana with 2 samples.

Results

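Aquaporins are membrane channels for water and small neutral solutes. The 33 loci described here are those, of 22937 in the deposited table, whose protein name contains "intrinsic protein", "NOD26" or "aquaporin". By that name 12 belong to the plasma membrane, 7 to the tonoplast (the membrane of the vacuole) and 14 to neither, the last class holding NOD26-like and small basic proteins, members with a general name only and 1 pseudogene. The 2 libraries were made from total RNA of root tips cut from primary roots of Arabidopsis thaliana. 1 library is labelled atphb3, a name that refers to PHB3, a prohibitin of the mitochondrial inner membrane, and 1 is labelled Col, the Columbia wild type. Plants of both groups were held cold for 3 days after plating on MS medium and then moved to 20 °C under days of 16 h and nights of 8 h. Neither the allele of atphb3 nor the age of the seedlings is stated in the labels.

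Plasma membrane intrinsic proteins (PIPs) carry most of the water that crosses root cells, and tonoplast intrinsic proteins (TIPs) let the vacuole fill as a cell elongates. NOD26-like intrinsic proteins (NIPs) mainly pass solutes such as boric acid and arsenite, and small basic intrinsic proteins (SIPs) lie in the endoplasmic reticulum. In root tips the TIPs of the large vacuole come up as cells leave the meristem, and the PIPs are spread over epidermis, cortex, endodermis and stele.

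With 1 library per group there is no spread between plants and no test between the genotypes. Every ratio below is atphb3 over Col, and its interval is the exact 95% Clopper-Pearson interval, which covers counting error of these reads only. The libraries held 7384348 reads (atphb3) and 7451022 reads (Col). Loci that reached 50 reads in either library, 12931 in all, are called measured. The mRNA of PHB3 itself gave no check of the label, with 863 reads in the library labelled atphb3 and 915 reads in Col, a ratio of 0.952 (0.866 to 1.05). The protocol names root tips in 1 sentence and shoots and roots in another, and the shoot markers described last stood far lower in atphb3 than in Col.

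Of the 33 aquaporin loci, 24 were measured and 9 were not. At least 2-fold higher in atphb3 were 6 of the 24 (25%), beside 9.74% of all measured loci, and at least 2-fold lower were 3 (12.5%), beside 10.1% of all measured loci. The 6 higher loci were PIP1;2 (also called PIP1B), PIP1;4 (PIP1E), PIP2;3 (RD28), PIP2;5 (PIP2D), TIP4;1 and NIP6;1 (NIP6). The 3 lower loci were PIP2;4 (PIP2F), TIP2;3 (DELTA-TIP3) and NIP3;1. The counting interval lay wholly above 1 for 12 of the 24, where 37.7% of all measured loci lay, and wholly below 1 for 7, where 30.1% lay, and it included 1 for the other 5. The median log2 ratio of the measured aquaporins was 0.30, against 0.076 for all measured loci.

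A locus with few reads enters this count only through the library in which it is high. PIP1E, PIP2D, NIP6 and SIP2;1 (SIP2) reached 50 reads in atphb3 alone, and NIP3;1 and the pseudogene AT2G21020 reached them in Col alone. The 18 aquaporins with 50 reads in both libraries held 3 loci at least 2-fold higher, PIP1B, RD28 and TIP4;1, where 6.76% of all loci with as many reads lay. They held 2 at least 2-fold lower, PIP2F and DELTA-TIP3, where 6.97% of such loci lay. Their median log2 ratio was 0.15, against 0.070 for all loci with as many reads.

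**Figure D1:**
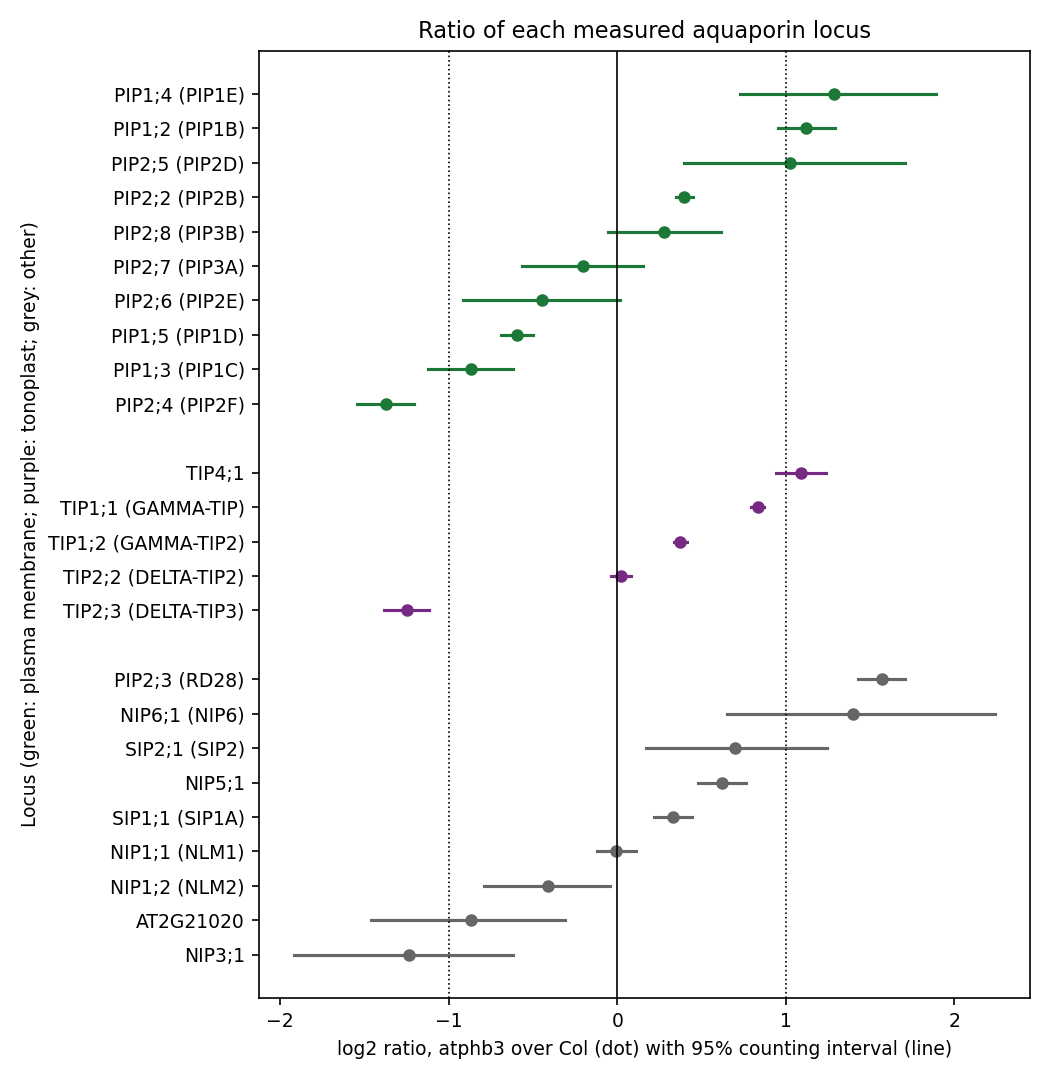
log2 ratio of atphb3 over Col for each of the 24 measured aquaporin loci (dots) with the 95% counting interval (lines), by class and ordered by ratio; dotted lines mark 2-fold. PIP2;3 has the highest value, 1.57, PIP2;4 has the lowest, -1.37, and long lines mark loci with few reads.

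All aquaporins fold into a channel around short boxes that begin with asparagine and proline. The coding stretch around the first box is shown for the 9 loci past 2-fold, for TIP1;1 (GAMMA-TIP), the most abundant aquaporin in atphb3, and for NIP5;1, where this box differs. Capitals mark the 9 bases of the box.
RD28: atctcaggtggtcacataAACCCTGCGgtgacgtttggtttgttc
PIP1B: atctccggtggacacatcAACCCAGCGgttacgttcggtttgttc
PIP1E: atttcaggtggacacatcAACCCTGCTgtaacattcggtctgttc
PIP2D: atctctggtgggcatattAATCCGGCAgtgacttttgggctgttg
PIP2F: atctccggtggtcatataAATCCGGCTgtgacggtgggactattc
TIP4;1: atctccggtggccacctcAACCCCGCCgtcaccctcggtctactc
DELTA-TIP3: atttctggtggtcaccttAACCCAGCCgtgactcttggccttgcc
GAMMA-TIP: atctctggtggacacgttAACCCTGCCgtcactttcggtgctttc
NIP6: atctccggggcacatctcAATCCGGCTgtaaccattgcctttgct
NIP3;1: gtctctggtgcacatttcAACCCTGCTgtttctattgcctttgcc
NIP5;1: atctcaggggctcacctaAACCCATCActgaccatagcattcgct
The sequences are RefSeq coding bases of TAIR10.1, read on the strand of each gene, and in the PIPs an intron interrupts the stretch. RD28 lies at chr2:15618073-15618238, PIP1B at chr2:18910771-18911040 and PIP2D at chr3:20302414-20302575, all on the plus strand. PIP1E lies at chr4:186860-187207 and PIP2F at chr5:24376396-24376639, both on the minus strand. The unbroken stretches are at chr2:11012982-11013026 (TIP4;1), chr2:15445724-15445768 (GAMMA-TIP) and chr1:11450984-11451028 (NIP3;1) on the plus strand. On the minus strand they are at chr5:19249194-19249238 (DELTA-TIP3), chr1:30351479-30351523 (NIP6) and chr4:6432351-6432395 (NIP5;1). The box reads asparagine, proline and alanine in 27 of the 32 members whose coding sequence could be read, those past 2-fold on either side included. Its last residue is serine in NIP5;1 and NIP7;1 and differs again in each of the 3 SIPs. The second box ends in alanine in 28 of the 32, in valine in NIP5;1 and NIP6, and in glycine in NIP1;1 (NLM1) and NIP1;2 (NLM2).

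By summed reads the tonoplast loci were the most abundant aquaporin class in both libraries, and GAMMA-TIP and TIP1;2 were the most abundant single loci. Levels are the authors' RPKM, a read count divided by transcript length and by library total, which sets genes of unequal length on 1 scale. GAMMA-TIP, the water channel of the large vacuole of elongating cells, had 1867 RPKM in atphb3, against 1048 RPKM in Col, from 14600 reads in atphb3 and 8270 reads in Col. Its ratio was 1.78 (1.73 to 1.83), and by RPKM it ranked 7 among all loci in atphb3 and 29 in Col. GAMMA-TIP2 (TIP1;2), its closest relative in the list, which passes water and urea, had 1408 RPKM in atphb3, against 1086 RPKM in Col, a ratio of 1.30 (1.26 to 1.33). In Col these relatives stood at nearly the same level, and in atphb3 GAMMA-TIP was the higher. Their coding sequences are 81.7% identical, and no 50-base window of either is found in another locus.

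TIP4;1, a tonoplast channel that passes water and urea, had 136 RPKM in atphb3, against 63.8 RPKM in Col. This is the tonoplast locus with the highest ratio, 2.13 (1.92 to 2.36), from 1167 reads in atphb3 and 554 reads in Col. It lies at chr2:11012506-11014170 on the plus strand by the authors' positions, for which no build is stated.

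Within 1 pair of close relatives the members differed. DELTA-TIP3, a water channel of the tonoplast that also passes ammonia, had 84.0 RPKM in atphb3, against 199.7 RPKM in Col, with a ratio of 0.421 (0.383 to 0.461) from 652 reads in atphb3 and 1564 reads in Col. TIP2;2 (DELTA-TIP2) had 609 RPKM in atphb3, against 599 RPKM in Col, a ratio of 1.02 (0.974 to 1.06). DELTA-TIP3 therefore made up 12.9% (12.0 to 13.9) of the pair's 5047 reads in atphb3, against 26.4% (25.3 to 27.5) of 5930 reads in Col. The pair differs at 139 of 753 coding bases and shares no 50-base window. A stretch of 60 bases near the end of the coding sequence shows how unlike the copies are, with capitals at the 27 bases that differ.
DELTA-TIP3: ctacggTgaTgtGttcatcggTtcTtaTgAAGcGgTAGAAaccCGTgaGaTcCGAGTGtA
DELTA-TIP2: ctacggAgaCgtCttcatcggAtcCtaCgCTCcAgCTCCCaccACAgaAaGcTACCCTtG
These stretches lie at chr5:19248510-19248569 on the minus strand and chr4:9700190-9700249 on the plus strand of TAIR10.1.

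**Figure D2:**
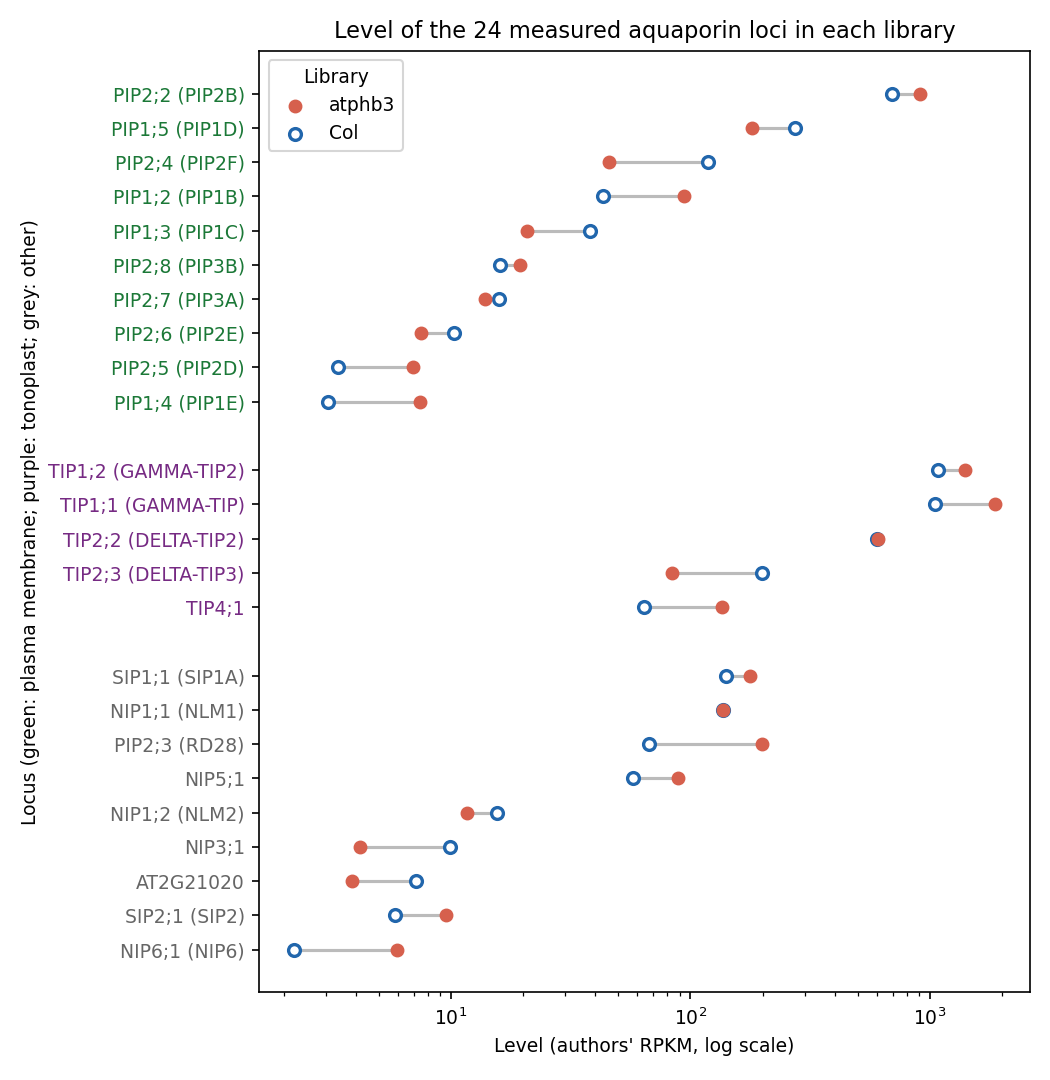
Level of the 24 measured aquaporin loci as the authors' RPKM on a log axis, with atphb3 as filled red dots and Col as open blue circles, 1 library each, joined by a line and grouped by class. TIP1;1 (1867 RPKM in atphb3, 1048 in Col) and TIP1;2 (1408 in atphb3, 1086 in Col) stand to the right of every other locus.

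Among the PIP2 channels, which form water pores on their own, 2 neighbouring genes were both higher in atphb3 by unequal amounts. RD28, first named for its response to desiccation, had 198 RPKM in atphb3, against 66.8 RPKM in Col. Its ratio of 2.97 (2.70 to 3.27), from 1679 reads in atphb3 and 571 reads in Col, is the highest of the 24, and it is the 1 aquaporin whose counting interval lies wholly beyond 2-fold on the higher side. PIP2B (PIP2;2), a contributor to water uptake by root cortex cells, is the most abundant PIP, with 914 RPKM in atphb3, against 694 RPKM in Col, a ratio of 1.32 (1.27 to 1.36). RD28 held 17.8% (17.1 to 18.6) of the 9415 reads of the pair in atphb3, against 8.79% (8.11 to 9.51) of 6494 reads in Col.

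RD28 and PIP2B lie back to back on chromosome 2, with 2850 bases between their listed spans, chr2:15617708-15619155 on the plus strand and chr2:15613402-15614857 on the minus strand. By coding bases they are the closest copies among the members compared, differing at 45 of 858. Of the 50-base windows of the RD28 transcript, 21.7% also occur in PIP2B, so part of the reads could be placed on either, and the labels do not say how such reads were treated. The 60 coding bases below hold 10 differences, in capitals.
RD28: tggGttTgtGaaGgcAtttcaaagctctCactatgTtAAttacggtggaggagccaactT
PIP2B: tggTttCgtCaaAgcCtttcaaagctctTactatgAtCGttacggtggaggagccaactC
They lie at chr2:15618313-15618372 (plus strand) and chr2:15614198-15614257 (minus strand) of TAIR10.1. Summed over both copies, the pair had 9415 reads in atphb3 and 6494 reads in Col, a ratio of 1.46 (1.42 to 1.51). The placing of reads on 1 copy or the other drops out of this sum. Any reads left out for matching both copies would be missing from it.

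PIP2F was the aquaporin with the lowest ratio. This root channel for water and hydrogen peroxide had 45.9 RPKM in atphb3, against 119 RPKM in Col, from 387 reads in atphb3 and 1012 reads in Col, a ratio of 0.386 (0.342 to 0.434). Its listed span is chr5:24375457-24376989 on the minus strand, and none of its 50-base windows occurs in another locus. It was the second most abundant PIP2 in Col, and in atphb3 RD28 stood above it.

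The other PIP2 loci had few reads. PIP2D, known as a cold-responsive PIP2, had 6.94 RPKM in atphb3, against 3.39 RPKM in Col. Its ratio of 2.05 (1.31 to 3.26) rests on 63 reads in atphb3 and 31 reads in Col and drops under 2-fold with another scaling or pseudocount. The intervals of PIP2E (PIP2;6), PIP3A (PIP2;7) and PIP3B (PIP2;8) all include 1. Their ratios were 0.733 (0.530 to 1.01), 0.868 (0.676 to 1.11) and 1.21 (0.963 to 1.53), from 69, 123 and 166 reads in atphb3 and 95, 143 and 138 reads in Col. Summed, the PIP2 loci had 10228 reads in atphb3 and 7915 reads in Col, a ratio of 1.30 (1.27 to 1.34). The sum follows PIP2B and RD28, which gave 9415 of these reads in atphb3 and 6494 in Col. Of the other measured PIP2 loci, PIP2F, PIP2E and PIP3A had ratios below 1, and PIP2D and PIP3B had ratios above 1.

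The PIP1 channels, which reach the plasma membrane with the help of PIP2 partners, divided. PIP1B, a contributor to root water flow, had 94.1 RPKM in atphb3, against 43.3 RPKM in Col, a ratio of 2.17 (1.93 to 2.45) from 901 reads in atphb3 and 418 reads in Col. PIP1D (PIP1;5), the most abundant PIP1 in both libraries, had 181 RPKM in atphb3, against 273 RPKM in Col, a ratio of 0.662 (0.620 to 0.706). PIP1C (PIP1;3) had 20.8 RPKM in atphb3, against 38.0 RPKM in Col, a ratio of 0.548 (0.459 to 0.653). Of the PIP1 loci with 50 reads in both libraries, 1 was thus higher and 2 were lower in atphb3. PIP1E, a PIP1 linked to hydrogen peroxide uptake in immunity, had 7.41 RPKM in atphb3, against 3.05 RPKM in Col, from 90 reads in atphb3 and 37 reads in Col (ratio 2.45, 1.66 to 3.70).

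Summed, the PIP1 loci had 2707 reads in atphb3 and 3129 reads in Col, a ratio of 0.873 (0.829 to 0.919). The sum follows PIP1D, which gave most of the reads. PIP1C and PIP1E encode proteins that are 97.6% identical, while their coding bases are 85.3% identical and share no 50-base window. PIP1B has 2 listed transcripts, and the first held 879 of its reads in atphb3 and 409 in Col. PIP1E also has 2, while PIP1C and PIP1D have 1. How reads shared by transcripts were counted is not given, so the order of the PIP1 levels may depend on it.

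Among the NIPs, the boric acid channels NIP5;1 and NIP6 were higher in atphb3. The first, which takes up boric acid in roots, had 88.7 RPKM in atphb3, against 57.6 RPKM in Col, a ratio of 1.54 (1.39 to 1.70) from 996 reads in atphb3 and 653 reads in Col. NIP6, known for boric acid transfer in shoot nodes, had 5.92 RPKM in atphb3, against 2.21 RPKM in Col. Its ratio of 2.67 (1.57 to 4.72) rests on 53 reads in atphb3 and 20 reads in Col. The listed span of NIP6 overlaps another listed locus, AT1G80750, but none of its 50-base windows occurs in another locus. Shorter shared stretches were not tested.

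NLM1, an arsenite-permeable NIP of the root, had 137 RPKM in both libraries, a ratio of 0.996 (0.919 to 1.08). NLM2, linked to aluminium handling, had 11.7 RPKM in atphb3, against 15.6 RPKM in Col, a ratio of 0.750 (0.578 to 0.970). NIP3;1, another arsenite-permeable NIP, had 4.18 RPKM in atphb3, against 9.94 RPKM in Col, a ratio of 0.420 (0.265 to 0.652) from 30 reads in atphb3 and 72 reads in Col. The pseudogene AT2G21020 had 41 reads in atphb3 and 76 reads in Col, a ratio of 0.544 (0.363 to 0.806). These last loci cannot be read independently, since 11.4% of the 50-base windows of NIP3;1 recur in AT2G21020. Over all NIPs the reads were 2388 in atphb3 and 2104 in Col, a ratio of 1.15 (1.08 to 1.21).

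The SIPs of the endoplasmic reticulum were represented mainly by SIP1A (SIP1;1). It had 177 RPKM in atphb3, against 141 RPKM in Col, a ratio of 1.26 (1.16 to 1.36) from 1438 reads in atphb3 and 1154 reads in Col. SIP2 had 79 reads in atphb3 and 49 reads in Col, a ratio of 1.63 (1.12 to 2.37), and overlaps AT3G56940, with which it shares 7.63% of its 50-base windows.

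The 9 loci that were not measured had between 0 and 13 reads in atphb3 and between 0 and 10 reads in Col. They include PIP1A (PIP1;1), with 8 reads in atphb3 and 6 reads in Col, and PIP2A (PIP2;1), with 5 reads in atphb3 and 2 reads in Col, both known as root PIPs. Each measured PIP had 31 or more reads in both libraries. NLM5 (NIP4;2), known from pollen, had 13 reads in atphb3 and 10 reads in Col, and NLM4 (NIP2;1), a lactic acid channel of roots short of oxygen, had 5 reads in atphb3 and 7 reads in Col. ALPHA-TIP (TIP3;1) and BETA-TIP (AT1G17810), the channels of seed storage vacuoles, had 3 and 1 reads in atphb3 and 4 and 0 reads in Col. GAMMA-TIP3 (TIP1;3), of pollen, had 2 reads in atphb3 and 0 reads in Col, and NIP7;1, of anthers, had 2 reads in atphb3 and 1 read in Col. SIP1B (SIP1;2) had 0 reads in atphb3 and 5 reads in Col, and a count of 0 allows up to 3 reads, or 0.406 CPM, in atphb3. At these depths a difference between the libraries was not detectable for these loci. PIP1A and SIP1B have several listed transcripts, so their low counts may depend on how shared reads were counted.

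The rule by protein name passed over 1 aquaporin that the table lists, DELTA-TIP (TIP2;1), a water channel that is entered as an integral protein. It had 151 RPKM in atphb3, against 125 RPKM in Col, a ratio of 1.21 (1.11 to 1.31) from 1273 reads in atphb3 and 1065 reads in Col. Of the 35 aquaporins known in this plant, 33 have reads listed, and TIP5;1 and NIP4;1 were not analysed here.

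Taking all members as a pool, aquaporins made up 0.680% of the reads in atphb3 (50190 reads), against 0.522% in Col (38912 reads), a ratio of 1.30 (1.28 to 1.32). GAMMA-TIP alone held 29.1% of the aquaporin reads in atphb3, against 21.3% in Col, and without it the ratio was 1.17 (1.15 to 1.19). GAMMA-TIP2 held 24.9% in atphb3, against 24.98% in Col, and PIP2B 15.4% in atphb3, against 15.2% in Col. The share of PIP2F was 0.771% in atphb3, against 2.60% in Col. In bulk root tips, fewer cells of a type cannot be told apart from less RNA per cell.

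By class, tonoplast loci summed to 4510 CPM (counts scaled to the library total) in atphb3, against 3285 CPM in Col, a ratio of 1.37 (1.35 to 1.40). Without GAMMA-TIP this sum's log2 ratio was 0.22 in place of 0.46. Plasma membrane loci summed to 1524 CPM in atphb3, against 1406 CPM in Col, a ratio of 1.08 (1.06 to 1.11), or 0.12 on the log2 scale. Within this class by protein name, which leaves out RD28, that small excess is carried by 1 gene. Without PIP2B the log2 ratio of the class sum was -0.36. The remaining class summed to 762.2 CPM in atphb3, against 532 CPM in Col, a ratio of 1.43 (1.38 to 1.49), and it holds RD28, which is a PIP by symbol but has only a general protein name. With classes taken by symbol, the 13 PIPs, RD28 and PIP2B included, had a ratio of 1.18 (1.15 to 1.21). Of the reads of the PIPs by symbol, PIP2B gave 7736 of 12935 in atphb3 and 5923 of 11044 in Col. The PIPs by symbol were not summed without PIP2B.

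**Figure D3:**
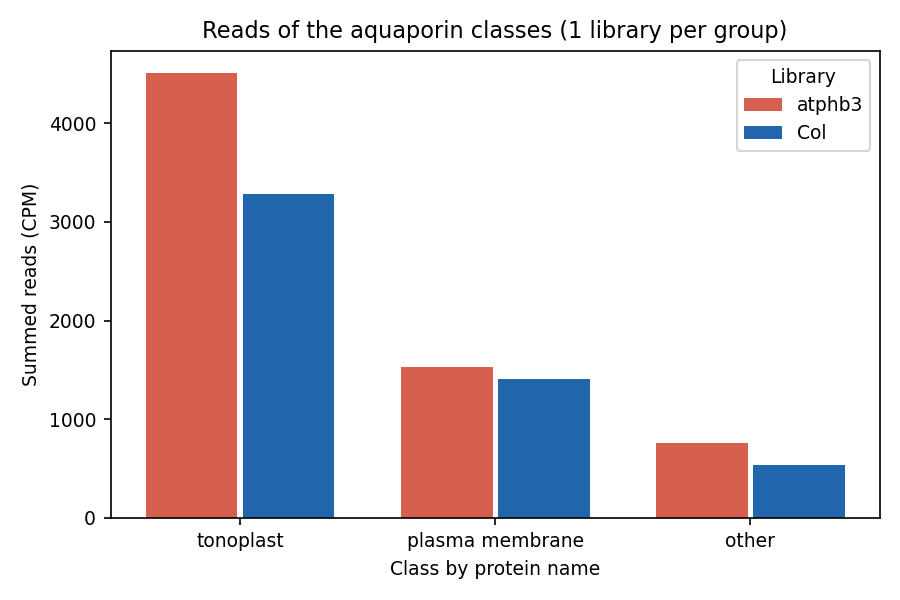
Summed CPM of the tonoplast, plasma membrane and remaining aquaporins, classed by protein name, in atphb3 (left bar of each pair) and Col (right bar), 1 library each. The tonoplast bars, 4510 CPM in atphb3 and 3285 CPM in Col, are the tallest and differ most in CPM.

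The class medians were 0.37 for the 5 measured tonoplast loci, 0.038 for the 10 plasma membrane loci and 0.33 for the 9 others, beside 0.076 for all measured loci. These medians rest on few loci, among them those that reached 50 reads in 1 library alone. The 21 measured aquaporins with 1 listed transcript had a median of 0.023. Of the 3 with several, PIP1E and SIP2 reached 50 reads in atphb3 alone. That leaves PIP1B, so nothing is concluded from the number of transcripts.

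**Figure D4:**
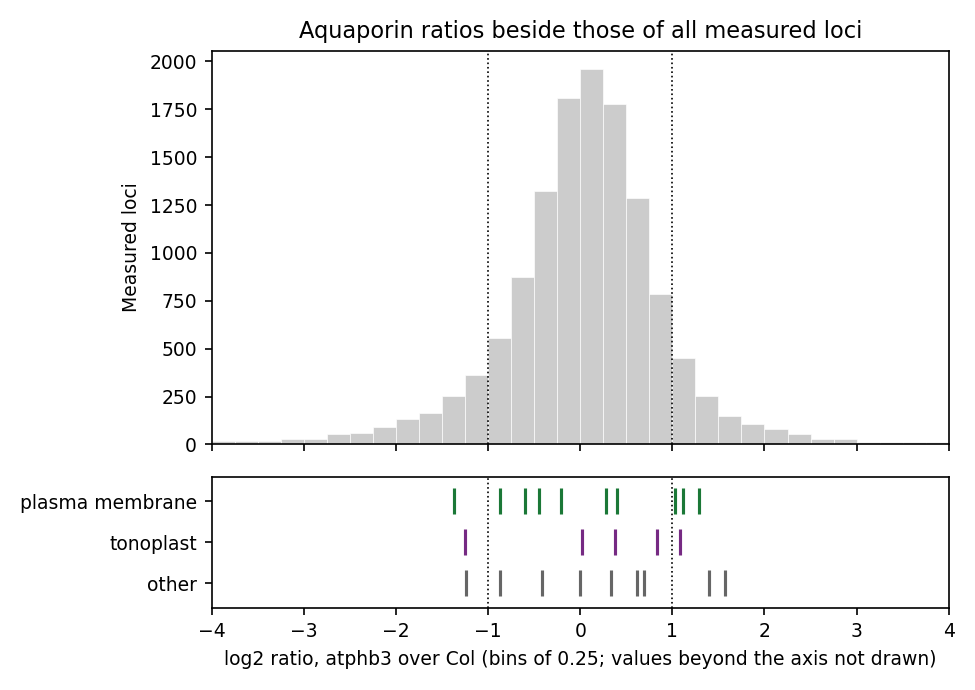
Upper panel, number of measured loci in bins of the log2 ratio of atphb3 over Col. Lower panel, the 24 measured aquaporins as ticks, by class, with dotted lines at 2-fold. Aquaporins run from -1.37 to 1.57 and lie on both sides of 0 in all 3 classes.

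Lists of genes that work beside the aquaporins are set against all measured loci, of which 80.2% lay within 2-fold and 54.6% had a log2 ratio above 0. The plasma membrane proton pumps, which drive solute transport across that membrane, had 6 measured members of 10 listed, none past 2-fold on either side, and a median log2 ratio of -0.15. The most abundant pump, AHA1, had 9752 reads in atphb3 and 11351 reads in Col, and AHA2, the main root pump, had 3165 reads in atphb3 and 4525 reads in Col, a ratio of 0.706 (0.674 to 0.739). All 12 vacuolar proton pump genes listed were measured, none was past 2-fold, and 9 had a log2 ratio above 0, with a median of 0.27. Their reads summed to a ratio of 1.17 (1.15 to 1.19), against 0.829 (0.811 to 0.848) for the plasma membrane pumps. VHA-a3, a tonoplast subunit of the vacuolar ATPase, had 5304 reads in atphb3 and 4159 reads in Col.

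Of the borate exporters, 2 of 6 were measured. BOR4, an exporter for high boron, had 278 reads in atphb3 and 127 reads in Col, a ratio of 2.21 (1.78 to 2.75). BOR2 had 3716 reads in atphb3 and 3592 reads in Col, a ratio of 1.04 (0.997 to 1.09). Of 11 genes for the trafficking and regulation of PIPs, 6 were measured and none was past 2-fold, with a median log2 ratio of -0.31. RMA3, of the family of ubiquitin ligases that act on PIP2A, had 230 reads in atphb3 and 424 reads in Col, a ratio of 0.547 (0.464 to 0.644). TSPO, which directs PIP3A to autophagy, was not measured, with 39 reads in atphb3 and 3 reads in Col (ratio 13.1, 4.17 to 66.4). Also not measured were SYP121, with 32 reads in atphb3 and 11 in Col, and SIRK1, with 29 in atphb3 and 13 in Col. The intervals of TSPO, SYP121 and SIRK1 lay wholly above 1. SYP61 and RMA1, not measured either, had intervals that include 1, and RMA1 had 12 reads in atphb3 and 25 in Col.

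Markers of the cell types of the root tip differed between the libraries beside the aquaporins. The 5 root hair markers, all measured and 2 of them past 2-fold, summed to 857 CPM in atphb3, against 459 CPM in Col, and each was higher in atphb3. The 3 meristem markers, all measured, summed to 56.7 CPM in atphb3, against 22.7 CPM in Col. The 3 endodermis markers summed to 328 CPM in atphb3, against 254 CPM in Col, but did not move together. SCR had 1005 reads in atphb3 and 501 reads in Col, and MYB36 had 358 reads in atphb3 and 283 reads in Col. CASP1, with 1062 reads in atphb3 and 1106 reads in Col, had an interval that includes 1 (0.89 to 1.05). The 3 root cap markers, 2 of them measured, summed to 30.9 CPM in atphb3, against 14.9 CPM in Col. The summed vascular markers were lower in atphb3. The 6 xylem markers, all measured, summed to 385 CPM in atphb3, against 638 CPM in Col, with 5 lower, of which XCP1 had an interval that includes 1 (0.626 to 1.12), and 1 higher, VND7, with 61 reads in atphb3 and 48 reads in Col (ratio 1.28, 0.864 to 1.91). The 3 phloem markers, of which 2 were measured, summed to 51.3 CPM in atphb3, against 261 CPM in Col. The 4 shoot markers, genes of photosynthesis in leaves, were all lower, with 23.3 CPM in atphb3, against 451 CPM in Col. No marker was at 0 reads in either library, and the root cap marker SMB was close to it, with 1 read in atphb3 and 2 reads in Col. The part of these cell types in the aquaporin ratios was not tested.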

How the data were processed

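Per the labels' protocols, root tip RNA was primed at random for cDNA and read by Illumina sequencing, with 1 library per group. Per the file headers, the authors deposited for each of 26425 transcripts a length, a read count and an RPKM value per library, a log2 ratio and a p-value. The values show that the deposited RPKM is the count per unit of transcript length and of total reads, that 0 reads were written as 0.01, and that the deposited log2 ratio is that of RPKM. The aligner, the build and the read length are not given in the sources used here, nor is the test. The deposited p-value compares 1 library with 1 and was left aside.

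Summing transcripts gave counts for 22937 loci, scaled to CPM (1 read was 0.135 CPM in atphb3 and 0.134 CPM in Col). The log2 ratio adds 0.5 reads to each count. Ratios of single loci and of summed reads carry exact Clopper-Pearson intervals, which with 1 library per group cover counting error only. The reads carry no molecular identifiers, so duplicate reads may make these intervals too narrow. Counts of 0 were given a limit of 3 reads. Every measured member could be named, unmeasured ones were given with their reads, and other genes came from fixed lists. Members and lists were chosen with earlier results of these data known. The alternatives were other scalings (edgeR 4.0.16, DESeq2 1.42.0 in R 4.3.3), read minimums, limits, pseudocounts and classes. Scripts ran in Python 3.11.15 with pandas 2.3.3, scipy 1.17.1 and Biopython 1.88 and were tested on simulated data. Sequences, boxes and alternative gene names are from RefSeq, TAIR10.1, where all 33 members were found, 32 of them with the deposited span inside RefSeq's.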

Additional observations from a re-analysis of the deposited data

How the results depend on the processing

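No paired analysis was possible because each group held 1 library, and for the same reason no library could be left out. The 6 loci at least 2-fold higher became 3 with a minimum of 200 reads, 0 at a limit of 4-fold and 1 where the whole interval had to pass 2-fold. They became 5 under edgeR's TMM, under DESeq2's size factors and with a pseudocount of 2 reads. With 1 listed transcript they became 4, as with near-identical members summed. They became 9 at 1.5-fold and 9 with no read minimum. The 3 lower loci became 6 at 1.5-fold, 4 with no read minimum and 0 at 4-fold. They became 2 with a minimum of 200 reads and 2 where the whole interval had to pass 2-fold. The median over all members, 0.30, became 0.023 for loci with 1 listed transcript. The plasma membrane median, 0.038, became 0.34 with no read minimum, -0.60 with 200 reads and -0.32 with 1 listed transcript. The tonoplast median, 0.37, became 0.31 under edgeR's TMM, 0.33 under DESeq2's size factors, 0.83 with no minimum and 0.32 with DELTA-TIP put in. The median of the other class, 0.33, became 0.16 with no minimum, with 1 listed transcript and by symbol, and 0.48 with 200 reads or without the pseudogene. The log2 ratio of summed plasma membrane reads, 0.12, became 0.052 under TMM, 0.074 under DESeq2, 0.046 with totals lacking the 10 most abundant loci, -0.36 without PIP2B and 0.24 by symbol. The tonoplast sum, 0.46, became 0.39 under TMM, 0.41 under DESeq2, 0.39 with those totals and 0.22 without GAMMA-TIP. The sum of the other class, 0.52, became 0.45 under TMM, 0.45 with those totals, 0.59 without SIP1A and 0.23 by symbol. The cause was not tested, except where fewer loci enter by construction. Classing by symbol, putting in DELTA-TIP and leaving out the pseudogene were chosen after seeing the data. The median of all measured loci was 0.011 under TMM and 0.033 under DESeq2. Of single loci, DELTA-TIP2 crossed 0 (-0.043 under TMM, -0.020 under DESeq2) and PIP2D fell under 2-fold, at 0.96 under TMM, 0.98 under DESeq2 and 0.99 with a pseudocount of 2 reads.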
